A study of Homo sapiens with 2 samples.

Results

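Simple keratins, and the many pseudogene copies of 2 of them, were compared between HBEC-3KT cells overexpressing CBS and cells carrying the empty vector. The set was chosen by gene symbol in the deposited tables: KRT7, KRT8, KRT18, KRT19, KRT80, and each symbol made of KRT8P or KRT18P and a number. It held 122 of the 60619 genes, with 5 protein-coding keratins, 50 KRT8 pseudogenes and 67 KRT18 pseudogenes. HBEC-3KT is a human bronchial epithelial line immortalized with CDK4 and telomerase. Cells of the CBS library were transduced for 4 to 8 hours with a pLenti6 lentivirus carrying human CBS, the enzyme cystathionine beta-synthase, and those of the control library with the empty pLenti6 vector alone (control cells). Cells of both libraries were selected with blasticidin at 10 µg/mL and grown for 4 to 5 days on gelatin. The promoter that drives CBS in the vector was not given in the sources used here. Each group held 1 library, so no difference below has a replicate check, no test between the conditions was possible, and the spread between cultures is unknown. The set was proposed with earlier results of this comparison in view, so the values below describe these 2 libraries.

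Keratins form the intermediate filaments of epithelial cells. A filament needs equal amounts of a type I and a type II keratin, and simple epithelia mostly pair KRT8 (type II) with KRT18 (type I), with KRT7 (type II) and KRT19 (type I) added in ducts and airways. A keratin left without a partner is degraded. KRT8 and KRT18 messages were also copied back into the genome many times as processed pseudogenes, intronless copies that usually lack a promoter of their own and resemble the parent so closely that a sequencing read may match either.

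The stretches below show how closely the copies resemble their parents, for KRT8P48 and KRT8P12, which are among the 4 KRT8 pseudogenes with the most counts. They are bases 159 to 248 of the KRT8 coding sequence (chr12:52904734-52904823, minus strand, GRCh38, an exon of KRT8) and the matching part of each pseudogene, from GENCODE 29 transcripts, written 5′ to 3′. Capitals mark bases that differ from KRT8. KRT8P48 (chr5:146707365-146707454, minus strand) and KRT8P12 (chr3:160568017-160568106, plus strand) each differed at 11 of 90 bases. The other copies compared here, KRT8P36 and KRT8P39, differed at fewer, 8 and 10. Over all aligned bases, KRT8P48 was 93.0% and KRT8P12 90.6% identical to KRT8.
KRT8: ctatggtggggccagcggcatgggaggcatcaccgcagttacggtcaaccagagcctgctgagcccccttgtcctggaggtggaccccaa
KRT8P48: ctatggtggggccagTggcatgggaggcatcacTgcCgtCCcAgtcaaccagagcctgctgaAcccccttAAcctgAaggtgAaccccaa
KRT8P12: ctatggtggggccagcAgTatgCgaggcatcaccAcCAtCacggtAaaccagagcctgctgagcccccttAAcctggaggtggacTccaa

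For KRT18, bases 241 to 330 of the coding sequence are shown (chr12:52949414-52949503, plus strand, an exon of KRT18), beside the 4 itemised KRT18 pseudogenes. Differing bases are again in capitals. KRT18P17 (chr3:12788343-12788432, minus strand) differed at 5 of 90 bases, KRT18P11 (chrX:92459904-92459993, plus strand) at 3, and KRT18P4 (chr20:49956983-49957072, plus strand) and KRT18P15 (chr3:32259192-32259281, plus strand) at 8 each.
KRT18: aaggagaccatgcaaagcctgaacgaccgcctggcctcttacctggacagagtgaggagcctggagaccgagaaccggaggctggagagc
KRT18P17: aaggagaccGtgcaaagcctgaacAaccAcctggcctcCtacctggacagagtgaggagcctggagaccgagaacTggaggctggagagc
KRT18P11: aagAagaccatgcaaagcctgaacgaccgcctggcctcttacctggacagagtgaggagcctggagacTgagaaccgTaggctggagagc
KRT18P4: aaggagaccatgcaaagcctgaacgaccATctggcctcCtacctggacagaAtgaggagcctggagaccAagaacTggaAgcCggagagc
KRT18P15: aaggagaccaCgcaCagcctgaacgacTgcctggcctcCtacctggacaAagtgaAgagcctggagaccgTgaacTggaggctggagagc

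Total expected counts were 20785957 in the CBS library and 20433062 in its empty-vector control. CBS itself had 3669 against 280 counts, in the direction its label gives. The separate entry CBSL (CBS-like) had 4378 against 343 counts. How reads were divided between CBS and CBSL was not tested. Basal airway markers were well expressed in both libraries, with TP63, the master regulator of basal cells, at 89.3 TPM with CBS and 88.2 TPM with the empty vector. Their summed level over 9 markers was 7317 CPM with CBS and 11104 CPM with the empty vector. FOXJ1 of ciliated cells, PTPRC of immune cells and the fibroblast collagens COL1A2 and COL3A1 had 0 counts in both libraries, and SCGB1A1 of club cells had 0 with CBS and 1 with the empty vector. Summed over all markers of a list, luminal or secretory genes stood at 104 CPM with CBS and 63.8 CPM with the empty vector, immune genes at 39.6 and 123.6, fibroblast genes at 6.28 and 13.7, and endothelial genes at 4.17 and 0.753. The luminal sum was mostly AGR2, a secretory protein, with 2135 counts in CBS cells and 852 in control cells, whereas the protease inhibitor SLPI had 70 and 405 and the mucin MUC5AC 0 and 10. The endothelial sum was mostly the cadherin CDH5, with 87 and 7 counts, whereas PECAM1 had 1 and 8. The immune sum was mostly CD68, with 619 counts in CBS cells and 2259 in control cells, whereas CD14 had 225 and 203. The fibroblast sum was mostly COL1A1, with 132 and 270 counts. Ciliated genes, despite the absence of FOXJ1, summed to 1162 CPM with CBS and 909 CPM with the empty vector. That sum was mostly the tubulin TUBB4B, with 24729 counts in CBS cells and 18044 in control cells, while CAPS had 37 and 41. The part of these differences in the results below was not tested. Each ratio given is that of the CBS library to its control, scaled by TMM, a correction for library size and composition. Its exact 95% interval covers counting error only. Log2 folds were shrunk with a prior of 5 counts, and the intervals beside them carry no prior.

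The abundant keratins KRT18, KRT8, KRT7 and KRT19 did not all differ in 1 direction. KRT18 was 1.60-fold and KRT8 1.38-fold higher with CBS, KRT7 was 1.10-fold higher, and KRT19 was lower at 0.785-fold. KRT80, the scarce member, had the highest ratio of the 5 at 3.44. The filter on low counts (at least 10 counts in 1 library and a mean of 1 CPM, counts scaled to library size) was passed by 9 members, the 5 keratins and 4 KRT8 pseudogenes.

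KRT18, the type I partner of KRT8, had 45157 counts in CBS cells and 26317 in control cells, a ratio of 1.60 (95% counting interval 1.58 to 1.63). In TPM, which scales counts by transcript length, its level was 2213 TPM with CBS and 1266 TPM with the empty vector. The gene (ENSG00000111057) lies on chromosome 12 at 52948871 to 52952901. In the order of all genes by TPM it stood at rank 51 with CBS and rank 121 with the empty vector.

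KRT8, its type II partner, had 33153 counts in CBS cells and 22460 in control cells, a ratio of 1.38 (1.36 to 1.40). Its level was 1325 TPM with CBS and 896 TPM with the empty vector, ranks 113 and 166. KRT8 (ENSG00000170421, chromosome 12, 52897187 to 52949954) neighbours KRT18 on the opposite strand, and the annotated genes overlap over 1084 bases. Exons of some transcript of each overlap over 525 bases, and those of the principal transcripts over 0. Whether reads were counted by strand was not given in the sources used here, so reads from that stretch cannot be told apart. The TPM of KRT8 was 0.599 times that of KRT18 with CBS and 0.708 times with the empty vector, so the RNA of this pair was further from parity in the CBS library. Over the 5 keratins, type II TPM was closer to type I with CBS, at 0.715 against 0.625. RNA levels do not give the amounts of protein, which were not measured here.

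KRT7, a type II keratin of ducts and glands, had 51278 counts in CBS cells and 43427 in control cells, a ratio of 1.10 (1.09 to 1.12), and levels of 2200 and 1903 TPM. KRT7 (ENSG00000135480) lies on chromosome 12 at 52232520 to 52252186. The antisense gene KRT7-AS, whose exons overlap those of the principal KRT7 transcript over 221 bases, had 381 counts in CBS cells and 512 in control cells, which is -0.52 (-0.72 to -0.33) as a log2 fold. The sense and antisense genes thus lay on opposite sides of a ratio of 1, although without strand their reads cannot be told apart.

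KRT19, the type I keratin that lacks the tail domain of other keratins, had 52241 counts in CBS cells and 62173 in control cells, a ratio of 0.785 (0.776 to 0.794). Its level of 2725 TPM with CBS and 3217 TPM with the empty vector was the highest of the 5 in both libraries. The gene (ENSG00000171345) lies on chromosome 17 at 41523617 to 41528308, away from the others. KRT19 stood at 1.23 times the TPM of KRT18 with CBS and 2.54 times with the empty vector. With the trend of folds on transcript GC content and length removed, the log2 fold of KRT19 was -0.12 in place of -0.35 and that of KRT7 was 0.40 in place of 0.14, both on the same side of 0.

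KRT80, a type II keratin found near desmosomes and in differentiating epithelia, had 195 counts in CBS cells and 53 in control cells, a ratio of 3.44 (2.53 to 4.75), or 1.69 (1.34 to 2.25) on the log2 scale. Its level was 3.52 TPM with CBS and 0.94 TPM with the empty vector, far below the other 4. KRT80 (ENSG00000167767) lies on chromosome 12 at 52168996 to 52192000. On log2(TPM + 1), which compresses low genes, its log2 fold was 1.22.

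**Figure D1:**
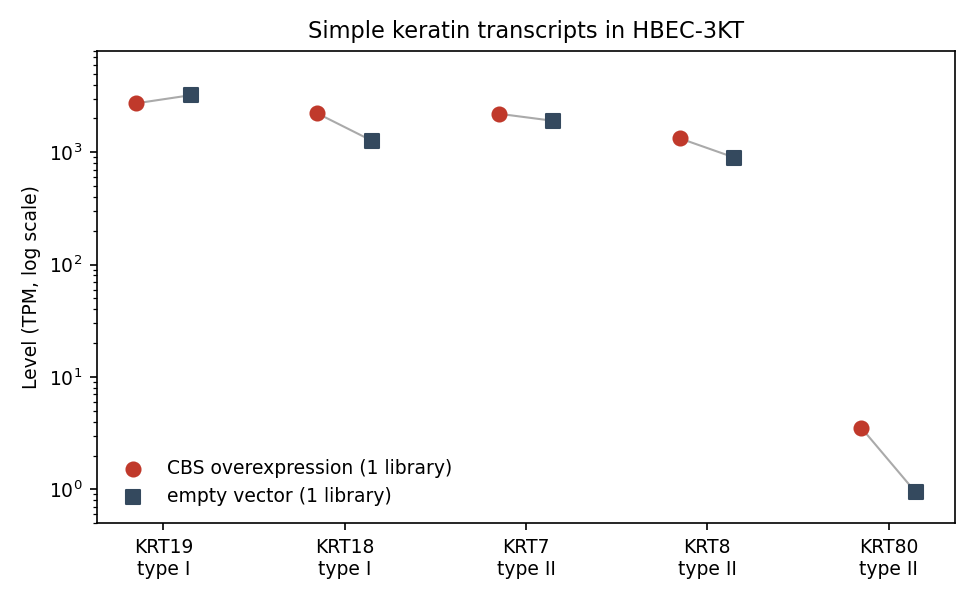
Level of the 5 keratins in TPM on a log axis, with 1 point for the CBS overexpression library (left) and 1 for the empty vector (right) of each gene. KRT18 shows 2213 against 1266 TPM and KRT19 2725 against 3217 TPM, while KRT80 lies at 3.52 against 0.94 TPM.

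Order by TPM differed between the libraries in 1 place. With CBS it ran KRT19, KRT18, KRT7, KRT8, KRT80, and with the empty vector KRT19, KRT7, KRT18, KRT8, KRT80. KRT18 and KRT7 stood at 2213 and 2200 TPM in the CBS library, a gap too small to order without replicates. Type II keratins of the set summed to 3529 TPM with CBS and 2800 TPM with the empty vector. The type I pair summed to 4938 TPM with CBS and 4483 TPM with the empty vector, and type II stood at 0.715 and 0.625 of type I. Counts per TPM, a measure of the mean effective transcript length, differed by a factor of 0.981 to 1.02 between libraries for the 5 genes, against 0.986 for the median gene.

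As sums, the 5 simple keratins and the rest of the keratin pool went opposite ways, although KRT19 was itself lower with CBS. The 5 summed to 8467 TPM with CBS and 7283 TPM with the empty vector. Other keratins summed to 4136 TPM with CBS and 7443 TPM with the empty vector, so that the 5 simple keratins made up 67.2% of keratin TPM with CBS and 49.5% with the empty vector. Of 51 other keratins, 9 passed the filter, 8 with intervals wholly under 1, against 31.1% of all genes, and 0 wholly over it, and their median log2 fold was -0.93, against 0.0016 over all genes above the filter. The keratins of basal and stressed epithelium KRT6B at -2.17 (-2.30 to -2.05) and KRT14 at -2.15 (-2.26 to -2.06) were the furthest from 0 of those with at least 100 counts. KRT15 (-1.94, interval -2.03 to -1.86) and KRT17 (-1.49, interval -1.52 to -1.46) followed. Of the 9 basal markers, 6 had intervals wholly under 1, against 31.1% of all genes, and those were KRT5, KRT14, KRT15, KRT17 and the integrins ITGA6 and ITGB4. The nerve growth factor receptor NGFR at 0.93 (0.83 to 1.04) and the hemidesmosome linker DST at 0.10 (0.06 to 0.15) had log2 folds above 0, and the interval of TP63 held 1. Their part in the keratin shift was not tested. In bulk RNA, a change in the number of cells of a kind and a change in RNA per cell cannot be told apart.

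Of the 9 members above the filter, 6 had an interval above a ratio of 1, where 31.6% of all genes above the filter did. KRT19 alone had one below, against 31.1% of all genes, and KRT8P39 and KRT8P12 had intervals that held 1. At least 2-fold higher with an interval above 1 were 2 members, KRT80 and KRT8P48, against 1.41% of all genes, and none was 2-fold lower, against 5.28%. KRT8P48 passed the filter only through the CBS library, so its place among these follows from the filter.

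**Figure D2:**
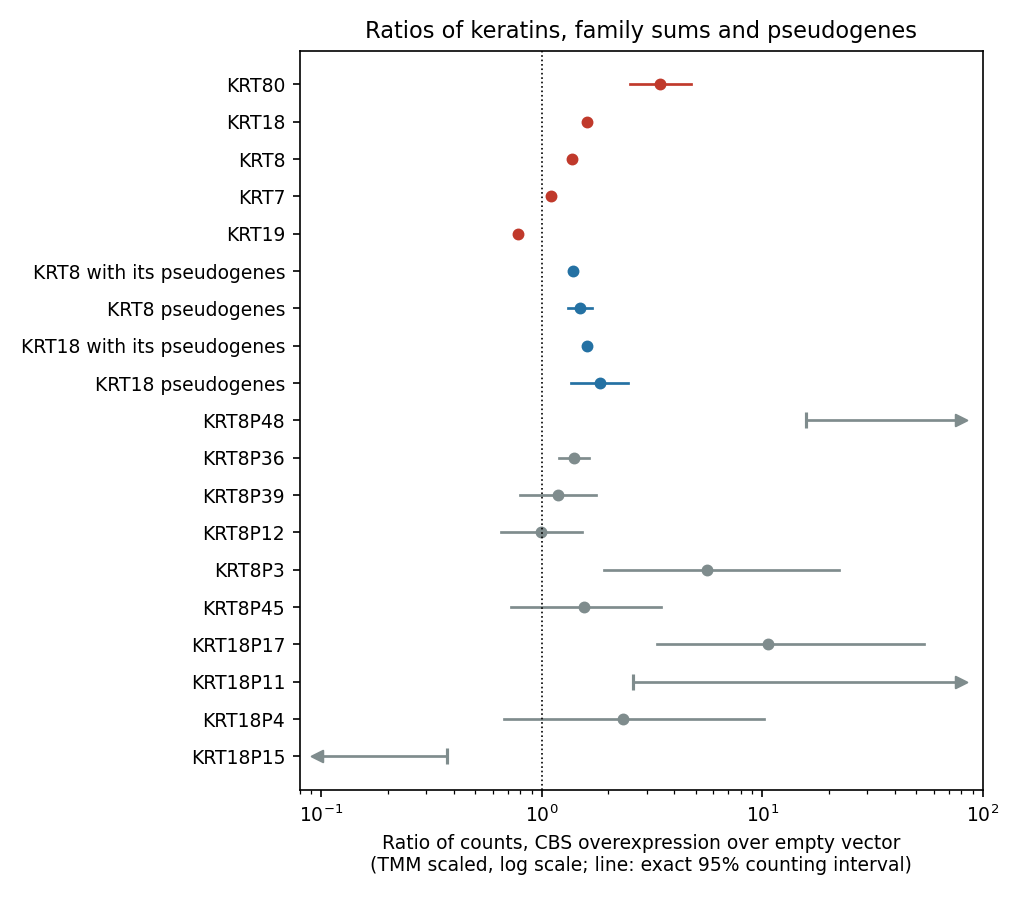
Ratio of counts, CBS overexpression over empty vector, on a log axis for the keratins (red), the sums over each family (blue) and the itemised pseudogenes (grey), with exact 95% counting intervals as lines and arrows where 1 library had no count. KRT8 with its pseudogenes lies on KRT8, and intervals of single pseudogenes are far wider.

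The pseudogenes held few reads, too few for their return to the parents to move the keratin ratios much in either direction. KRT8 pseudogenes summed to 646 counts in CBS cells and 405 in control cells, beside 33153 and 22460 for KRT8 itself. That was 1.91% (exact 95% interval 1.77 to 2.06) of the family's counts with CBS and 1.77% (1.60 to 1.95) with the empty vector, a difference of 0.14 percentage points (-0.09 to 0.365). KRT18 pseudogenes summed to 139 counts in CBS cells and 71 in control cells, 0.307% (0.258 to 0.362) and 0.269% (0.210 to 0.339) of the family, and the difference of 0.038 points (-0.048 to 0.119) also held 0.

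With each pseudogene count given back to its parent, KRT8 had 33800 counts in CBS cells and 22864 in control cells, at a ratio of 1.38 (1.36 to 1.40), the value of KRT8 alone. KRT18 likewise had 45295 and 26388 counts, at a ratio of 1.60 (1.58 to 1.63). The sums of pseudogenes were 1.49-fold (1.31 to 1.69) higher with CBS for KRT8 and 1.83-fold (1.36 to 2.47) higher for KRT18, and each interval held the ratio of its parent. Without KRT8P36 the KRT8 pseudogene sum had a ratio of 1.66 (1.35 to 2.05), and without KRT8P48 it had 1.34 (1.18 to 1.53). Without KRT18P17 the KRT18 sum had 1.42 (1.04 to 1.96), and these members were chosen after the values were seen.

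Deposited values show where reads had been divided between genes. RSEM, named in the submitters' processing notes, gives a count that is not whole where reads that match several genes are divided among them. Of the 94 pseudogene values above 0, 78 were not whole within 0.005, or 83.0%, against 41.7% of values above 0 over all other genes. All 10 values of the 5 keratins were not whole either.

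Few pseudogenes carried more than a trace. Of the 117, 51 had no count in either library, 28 had counts in both, 29 with CBS only and 9 with the empty vector only. That split was not set beside the same split over all genes, and for most copies it rests on fewer than 10 counts. At least 10 counts in 1 library were reached by 11, 10 of which are itemised here, and the highest of the rest had 9.29. Among the 28 with counts in both libraries, before scaling, 13 were higher with CBS, 14 were higher with the empty vector and 1 was equal.

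KRT8P36 held most of the KRT8 pseudogene counts. This processed pseudogene (ENSG00000240668, chromosome 3, 138101478 to 138102917) had 386.51 expected counts in CBS cells and 258.44 in control cells, or 59.8% and 63.8% of those counts. Its ratio of 1.40 (1.19 to 1.65) was close to the 1.38 of KRT8. As a share of KRT8 and KRT8P36 together it was 1.15% (1.04 to 1.27) with CBS and 1.14% (1.002 to 1.28) with the empty vector. It lies on the same strand inside an intron of DZIP1L, which itself had 73 counts in CBS cells and 45 in control cells, fewer than the pseudogene within it.

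KRT8P48 had the most counts of the pseudogenes found in 1 library alone. It had 64.47 expected counts in CBS cells and 0 in control cells, or 19.9-fold higher with the control set at a floor of 3 counts. That value leaves out counting error in the CBS library, and the lower limit of the exact interval was 15.7. Neither figure covers error in how reads were divided between KRT8P48 and other genes such as KRT8. The locus (ENSG00000248568, chromosome 5, 146706381 to 146707600) lies on the same strand in an intron of PPP2R2B, a phosphatase subunit, whose own counts were lower with CBS, at 116 against 194. No such gap appeared in the other KRT8 pseudogenes above the filter.

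KRT8P39 and KRT8P12 differed little between the libraries. KRT8P39 (chromosome 12, 68705634 to 68707066), in an intron of the nuclear pore gene NUP107 on the same strand, had 61.98 expected counts in CBS cells and 48.78 in control cells, a ratio of 1.18 (0.800 to 1.76). NUP107 had 1311 counts in CBS cells and 897 in control cells. KRT8P12 (chromosome 3, 160565447 to 160569248), annotated as a transcribed pseudogene, had 49.28 and 46.4, a ratio of 0.995 (0.652 to 1.52). Its exons overlap those of KPNA4, an importin on the opposite strand, over 142 bases, and KPNA4 had 2161 counts in CBS cells and 1868 in control cells.

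Below the filter, intervals were wide. KRT8P3 had 24.12 expected counts in CBS cells and 4.43 in control cells, a ratio of 5.61 (1.93 to 22.2), and KRT8P45 had 20.05 and 12.34, a ratio of 1.56 (0.725 to 3.49). Among KRT18 copies, KRT18P17 had 33.69 in CBS cells and 2.8 in control cells, a ratio of 10.6 (3.33 to 53.9). KRT18P11 had 12.49 with CBS and 0 with the empty vector, or 3.74-fold higher with the empty vector set at a floor of 3 counts. The exact interval of its ratio began at 2.596. KRT18P15 went the opposite way, with 0 with CBS and 11.05 with the empty vector, or 3.92-fold lower with CBS set at the same floor. Its exact interval reached a ratio of 0.372. KRT18P4 had 10.14 and 4.35. Single KRT18 copies thus lay on both sides of a ratio of 1.

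**Figure D3:**
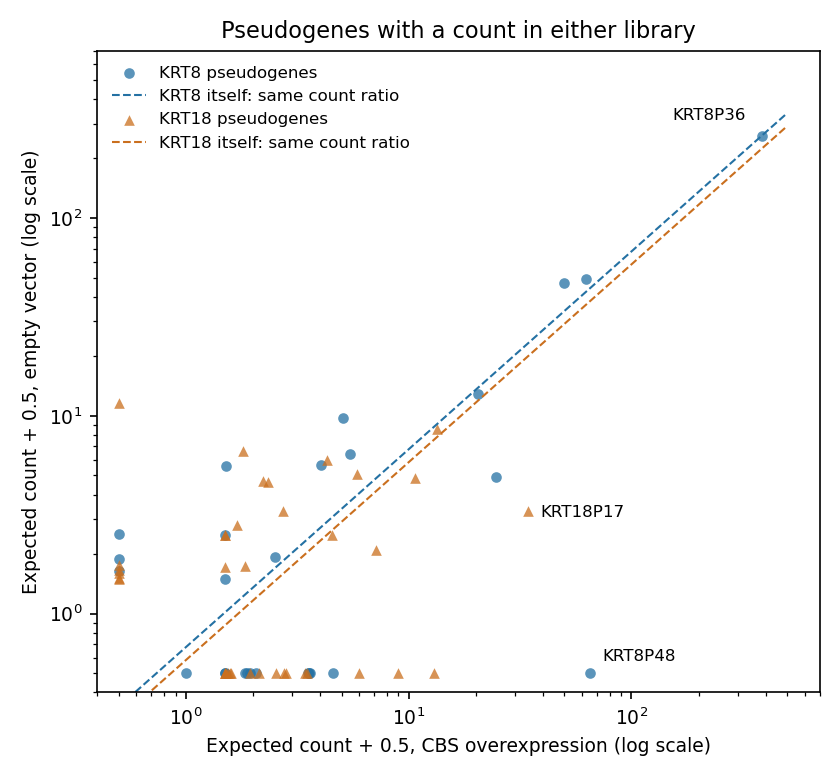
Expected count plus 0.5 of each pseudogene with a count, CBS overexpression on the x axis and empty vector on the y axis, both on log axes, with dashed lines at the unscaled count ratio of KRT8 and of KRT18. KRT8P36 lies on the KRT8 line at 386.51 and 258.44, and KRT8P48 lies at the bottom edge with 0 for the empty vector.

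Likeness to the parent was measured on GENCODE 29 transcripts, which matched all 122 members by gene ID and coordinates. Pseudogenes with at least 10 counts had a median identity of 93.2% (n = 6) for KRT8 and 93.8% (n = 5) for KRT18, those with fewer counts 92.0% (n = 21) and 91.9% (n = 34), and those with none 90.1% (n = 23) and 90.2% (n = 28). Across pseudogenes, the Spearman correlation of summed counts with identity was 0.54 over 50 KRT8 copies and 0.62 over 67 KRT18 copies. This describes copies that share a parent and the same 2 libraries.

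Counts did not follow likeness at the top. KRT8P3 at 97.1% identity and KRT8P45 at 95.6% were the closest of the itemised KRT8 copies and had fewer counts than KRT8P36 at 93.5%, KRT8P48 at 93.0%, KRT8P39 at 90.8% and KRT8P12 at 90.6%. The longest run of bases identical to KRT8 was 129 bases in KRT8P3 and 65 bases in KRT8P36, and 53 bases in KRT8P12. In KRT8P36, 2.01% of 50-base windows occurred unchanged in a KRT8 transcript, and in KRT8P12 0.297% did.

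**Figure D4:**
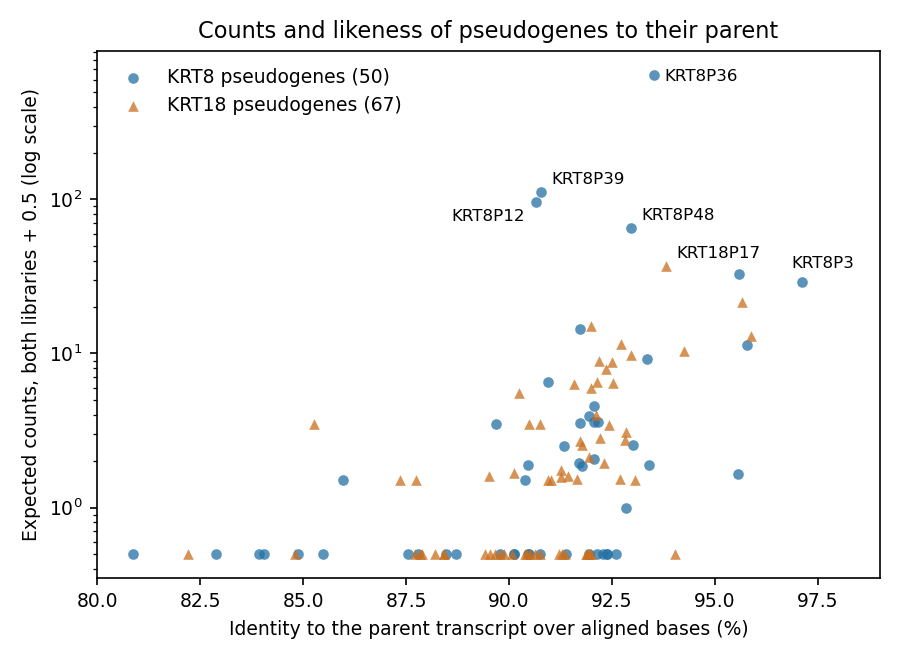
Summed expected counts plus 0.5 (log axis) against identity to the principal parent transcript over aligned bases, with 1 point for each of 50 KRT8 and 67 KRT18 pseudogenes. KRT8P36 has the most counts at 93.5% identity, and KRT8P3, at 97.1%, has fewer.

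Seen from the parents, short windows are often shared and long ones seldom. Of all 50-base windows of the principal KRT8 transcript, 39.7% occurred unchanged in at least 1 KRT8 pseudogene, and 7.25% of 100-base windows did. For KRT18 the shares were 35.1% of 50-base windows and 0 of 1321 100-base windows. The sources used here state neither read length nor layout, so the share of reads that could match both cannot be set.

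The protein-coding keratins compared were less alike over the part of their coding sequences that aligned. Coding sequences of KRT8 and KRT7 were 78.8% identical over aligned bases, with a longest shared run of 41 bases, and those of KRT19 and KRT18 were 67.6% identical with a run of 17 bases. KRT8 and KRT80 were 65.4% identical. Even so, 16 of 1307 50-base windows of the KRT80 coding sequence, or 1.22%, also occurred in that of KRT8. The other keratin pairs compared shared 0 such windows. KRT80, with 195 counts in CBS cells and 53 in control cells, had values that were not whole beside a far more abundant KRT8. Whether reads were shared between KRT8 and KRT80 was not tested.

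Proteins that bind, anchor or cleave keratin filaments lay on both sides of a ratio of 1. Of 27 listed genes, 26 passed the filter, 9 with intervals over 1, where 31.6% of all genes lay, and 12 with intervals under 1, where 31.1% lay. The median log2 fold was -0.07, against 0.0016 over all genes. Of the 26, 1 was at least 2-fold lower, where 5.28% of all genes were, and 0 were 2-fold higher, against 1.41%. The lower one was HSPB1, the small heat shock protein that binds keratins. It had 4313 counts in CBS cells and 11873 in control cells, or -1.56 (-1.61 to -1.51) on the log2 scale. TRADD, an adaptor of the TNF receptor that binds KRT18, was at -0.66 (-0.90 to -0.45), CASP9, an initiator caspase, at -0.55 (-0.86 to -0.26), and PKP3, a desmosomal plakophilin, at -0.54 (-0.61 to -0.48).

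Among other intermediate filament genes, 6 of 12 passed the filter, 4 with intervals over 1, against 31.6% of all genes, and 2 under 1, against 31.1%, at a median log2 fold of 0.24. VIM, the mesenchymal filament vimentin, had 268 counts in CBS cells and 413 in control cells, or -0.71 (-0.95 to -0.50) on the log2 scale. The nuclear lamins LMNB1 at 0.86 (0.78 to 0.95), LMNB2 at 0.35 (0.29 to 0.40) and LMNA at 0.13 (0.09 to 0.17) were higher.

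Transcription factors known to act on simple keratin genes were mostly lower with CBS. KRT19 was lower too, while KRT7, KRT8, KRT18 and KRT80 were higher. Any link between these factors and the keratins was not tested. All 20 listed passed the filter, 16 with intervals wholly under 1, against 31.1% of all genes, and 3 wholly over it, against 31.6%. The median log2 fold was -0.59, against 0.0016 over all genes. FOS, an AP-1 subunit, was at -2.70 (-2.90 to -2.55), KLF4 at -1.70 (-2.04 to -1.44), the epithelial ETS factor ELF3 at -1.23 (-1.47 to -1.03) and JUNB, another AP-1 subunit, at -1.22 (-1.31 to -1.15). Among those with an interval above 1, named after their values were seen, were GRHL2 at 0.58 (0.46 to 0.70) and SP1 at 0.12 (0.03 to 0.21).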

How the data were processed

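RNA from 2 HBEC-3KT libraries, 1 per group, was sequenced on the DNBseq platform per the labels. The submitters' processing notes name Trimmomatic 0.39, STAR 2.6.1d, RSEM 1.3.2 and GRCh38, with no steps given. The authors deposited expected counts per gene and TPM values. Expected counts were rounded to whole numbers. Of 60619 genes, 13304 reached 10 counts in 1 library and averaged 1 CPM or more. TMM factors from edgeR 4.0.16 were 1.03 with CBS and 0.975 with the empty vector, with no model fitted. Intervals are exact conditional binomial (Clopper-Pearson) and cover counting error only. They do not cover error in how reads were divided between genes. PCR reads are not independent molecules, so they may be too narrow. Intervals for differences of shares were combined from both exact intervals. A gene was called at a fold of 2 with an interval excluding 1. The calculation was tested on simulated data. Identity came from local alignment (Biopython 1.88) to an APPRIS principal transcript. Members and lists were chosen with earlier results of these data known. List genes named are up to 4 per list, ordered by size of log2 fold among genes with 100 counts or more, and pseudogenes those with at least 10 counts, 1 of which is left out. Alternatives were DESeq2 1.42.0 size factors, library totals, TPM, priors of 1 and 20, other filters and folds, and removal of the GC and length trend (statsmodels 0.14.6). Some sequences and 1 listed gene are not reported here.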

Additional observations from a re-analysis of the deposited data

How the results depend on the processing

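No paired analysis was possible because each group held 1 library. For the same reason no library could be left out. The number of members at least 2-fold higher was 2, and became 7 with no filter on low counts, 1 with a filter of 100 counts and 1 at a fold threshold of 4. The number at least 2-fold lower was 0, and became 1, KRT18P15, with no filter. The shares of all genes called under these alternatives are not given here, so those counts are not set against a background. The log2 fold of KRT8 with its pseudogenes, 0.47, became 0.54 with library totals, 0.57 in the authors' TPM and 0.58 with the GC and length trend removed. That of KRT18 with its pseudogenes, 0.68, became 0.75, 0.81 and 0.78 in the same order. Library totals moved the median log2 fold of all genes by 0.07, as much as either keratin sum, and that median was 0.09 in TPM. The cause of the rest of the shift was not tested. For the 15 named members, 62 of 90 log2 folds under these alternatives stayed within the counting interval of the reported fold, taken with the same prior count, 28 moved beyond it and none of those with an interval excluding 1 changed sign. Depth limits most pseudogenes, where a few counts decide the ratio.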

Other observations

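Other genes with many processed pseudogenes gave pseudogenes very different shares of their reads. Of 15 parents listed, 14 had symbols of this kind in the table. EEF1A1, a translation elongation factor, had 24.4% of family counts in its 39 pseudogenes with CBS and 24.4% with the empty vector. HMGB1, a chromatin protein, had 11.4% (exact 95% interval 10.8 to 12.1) with CBS and 14.5% (13.7 to 15.4) with the empty vector, while HMGB1 itself had a log2 fold of 0.54 and its pseudogene sum 0.14. NPM1, a nucleolar chaperone, had 0.672% (0.605 to 0.745) with CBS and 0.923% (0.819 to 1.04) with the empty vector. ACTB, cytoplasmic actin, had 0.021% with CBS and 0.022% with the empty vector. The keratin shares, near 1.9% for KRT8 and 0.3% for KRT18, lay between these. These families were named after their values were seen.

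KRT19 has pseudogenes too, outside the set described above. KRT19P1 had 2 counts in CBS cells and 3 in control cells, and KRT19P2 had 1 in each.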
